A study of Mus musculus with 2 samples.

Results

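The Irx, Meis and Pbx homeobox genes described here are Irx1, Irx2, Irx3, Irx5, Meis1, Meis2, Meis3, Pbx2 and Pbx3, 9 of 43346 mouse genes in the deposited gene tables. They were taken as a list of symbols and found by matching gene identifiers, without their version, to the GENCODE mouse annotation. The tissue was whole lung of B6NCrl mouse embryos at embryonic day 14.5, sequenced as total RNA in 2 libraries, biological replicates 1 and 2 of a single group in the labels. No mutation, agent or treatment is given for either library. The labels give extraction by Ambion mirVana, an input of 10.0 ng of RNA longer than 200 nt, added spike-ins and a protocol with Smart-seq in its name, which is a way of making cDNA from little RNA. The labels call both samples pooled male and female and also a lung from pup 1, and they give both the same donor entry, so the number of animals is uncertain. Every p-value below therefore compares these 2 libraries only, and their spread may be technical.

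All 9 genes encode homeodomain proteins of the TALE class, in which the loop between the first helices of the homeodomain is longer than usual. Meis proteins bind Pbx proteins, and both bind DNA together with Hox proteins, so they act as partners of the Hox genes that pattern the embryo along its axis. Irx (Iroquois) genes lie in clusters and act in patterning of the nervous system, limb, heart and other organs; in embryonic lung they are known mostly from the epithelium, and Pbx and Meis genes mostly from the mesenchyme.

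The gene tables held 33601136 and 34535168 estimated reads for replicates 1 and 2, with 4.94% and 3.96% of them on spike-ins. Levels are given in TPM, a measure per length with a fixed total per library, so that TPM values can be set side by side between genes. All 6 epithelial markers, all 6 mesenchymal markers and all 5 endothelial markers reached 1 TPM in both libraries. So did all 5 red blood cell markers, all 5 macrophage markers and 9 of 14 heart muscle markers. Of 21474 protein-coding genes, 12637 did as well, so reaching 1 TPM does not by itself identify the tissue. Heart muscle markers stood apart, with a summed level of 704.0 TPM (replicate 1) and 136.6 TPM (replicate 2). In whole tissue, fewer cells of a type and less RNA per cell cannot be told apart.

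All 9 genes, each of them protein-coding, were detected, defined as at least 1 TPM in both libraries. So were 12637 of 21474 protein-coding genes, and 14314 of the 43346 mouse genes of any type. Meis1 was by far the highest of them, with 97.0 TPM (replicate 1) and 107.65 TPM (replicate 2), a mean of 102.3 ± 7.53 TPM (SD, n = 2). That placed it above 88.5% of the 12637 protein-coding genes detected. Pbx3, next in order, had a mean 3.40-fold lower. Pbx3, Irx2, Meis2 and Irx3 followed each other at means between 30.06 and 23.14 TPM, and each overlapped its neighbour in this order. Meis3 at 17.88 TPM and Irx5 at 16.52 TPM overlapped each other and lay below Irx3, whose 2 libraries did not overlap those of Meis3. Pbx2 at 8.17 TPM and Irx1 at 7.34 TPM were the lowest, above 26.8% and 24.8% of detected protein-coding genes. Their libraries did not overlap, although the means differed by only 1.11-fold. Their deposited credibility bounds did overlap within each library, so the order of Pbx2 and Irx1 is uncertain. Summed by family, the 3 Meis genes held 137.6 and 153.8 TPM in replicates 1 and 2, the 4 Irx genes 68.49 and 83.72 TPM, and Pbx2 with Pbx3 37.2 and 39.26 TPM.

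**Figure D1:**
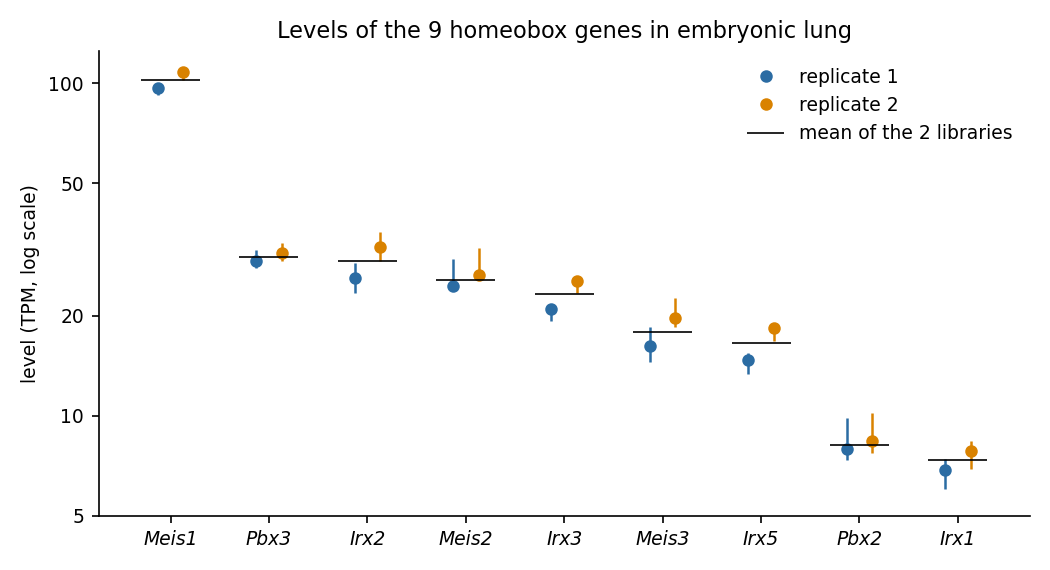
Level of each of the 9 genes in TPM on a log axis, in order of the mean, with replicate 1 left of replicate 2. Points are the deposited TPM, vertical lines run between the deposited lower and upper credibility bounds, which surround the program's posterior mean and not the point, and short black lines are means; Meis1 lies at 97.0 and 107.65 TPM, apart from the other 8, which lie between 6.86 and 32.21 TPM.

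The 4 Irx genes belong to 2 clusters, and in each cluster the first 2 genes were expressed and the last was at or near 0. On chromosome 13 (GRCm38), Irx1 lies at chr13:71957921-71963723 on the minus strand and Irx2 at chr13:72628820-72634198 on the plus strand, 665.1 kb apart. On chromosome 8, Irx3 lies at chr8:91798525-91802067 on the minus strand and Irx5 at chr8:92357625-92376286 on the plus strand, 555.6 kb apart. Irx1, whose loss in mice is known to disturb lung and tooth epithelium, stood at 6.86 TPM in replicate 1, with 7.82 TPM in replicate 2. Irx2, whose loss alone leaves mice viable, reached 25.99 TPM (replicate 1) and 32.21 TPM (replicate 2). Within its cluster Irx2 was thus 3.79-fold and 4.12-fold above Irx1 in the 2 libraries.

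Irx3, a regulator of neural tube, limb and cardiac conduction development, measured 20.95 TPM in replicate 1 and 25.33 in replicate 2. Irx5, which is known to work alongside Irx3 in limb and heart, stood at 14.69 TPM in replicate 1, with 18.36 TPM in replicate 2. Irx3 exceeded Irx5 by 1.43-fold and 1.38-fold, a narrower gap than that between Irx2 and Irx1. Replicate 2 was the higher library for each of the 4 Irx genes. The remaining cluster members differed from these. Irx4, known as a ventricle gene of the heart and 626.3 kb beyond Irx2, had 0 reads in both libraries, which allows levels of up to 0.0939 CPM in replicate 1 and 0.0905 CPM in replicate 2 (reads scaled to a common library total). Irx6, 298.0 kb beyond Irx5, had 2 reads in replicate 1 and 0 in replicate 2. These limits cover counting error only.

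**Figure D2:**
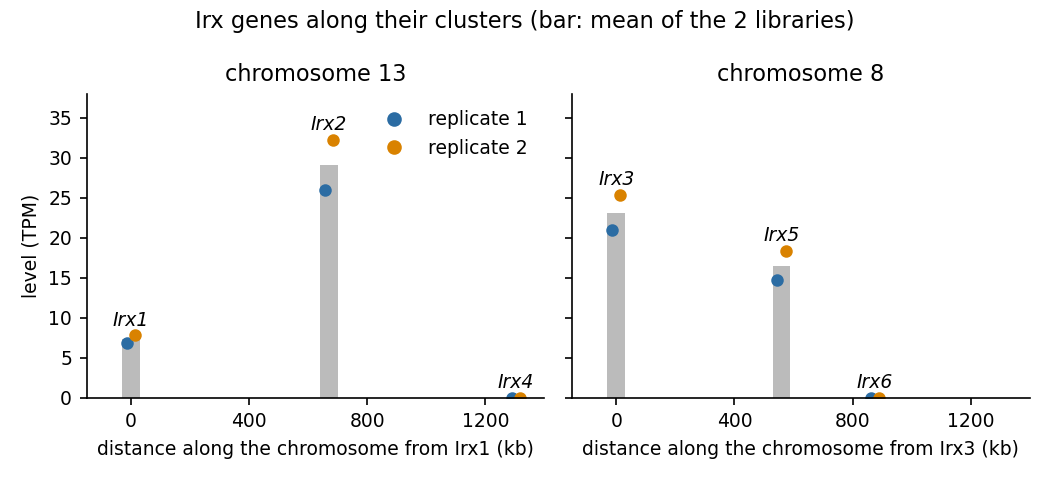
TPM of the Irx genes against the distance along the chromosome from the first gene of the cluster in kb, with chromosome 13 left and chromosome 8 right. Bars are means of the 2 libraries, and points are replicate 1 (left) and replicate 2 (right); Irx1, Irx2, Irx3 and Irx5 lie between 6.86 and 32.21 TPM, whereas Irx4 and Irx6, the last gene of each cluster, lie at 0.03 TPM or less.

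The Meis genes encode the partners that keep Pbx proteins in the nucleus and extend the DNA sequence the complex reads. Meis1 (chr11:18879817-19018985, minus strand), known for its part in blood stem cells and heart and eye development, took 70.5% of the summed Meis level in replicate 1 and 70.0% in replicate 2. Meis2 (chr2:115863064-116065839, minus strand), which acts in cranial and cardiac neural crest and the limb, reached 24.47 TPM (replicate 1) and 26.54 TPM (replicate 2). Meis3 (chr7:16175090-16186504, plus strand), known from hindbrain and enteric neural crest work in fish and frog, measured 16.15 TPM in replicate 1 and 19.61 in replicate 2. Meis1 exceeded Meis2 by 3.96-fold and 4.06-fold and Meis3 by 6.01-fold and 5.49-fold, so the order of the 3 genes was alike in both libraries.

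Much of the Meis1 signal was assigned to transcripts with no annotated coding sequence. Its leading transcript, the protein-coding Meis1-201 of 390 codons, carried 40.2% of the gene's TPM in replicate 1 and 37.2% in replicate 2. Next came Meis1-203, annotated as a processed transcript without a reading frame, with 32.5% and 34.0%. Protein-coding transcripts together made up 50.5% and 47.6% of Meis1, against 69.8% and 69.7% of Meis2 and 69.1% and 69.2% of Meis3. Retained-intron transcripts took 22.6% and 20.3% of Meis2 and 29.0% and 29.4% of Meis3. These shares come from a division of shared reads by the authors' program, whose own posterior SD for Meis1-203 was 71.9 and 69.2 reads on estimates of 1341.94 and 1563.64 reads.

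**Figure D3:**
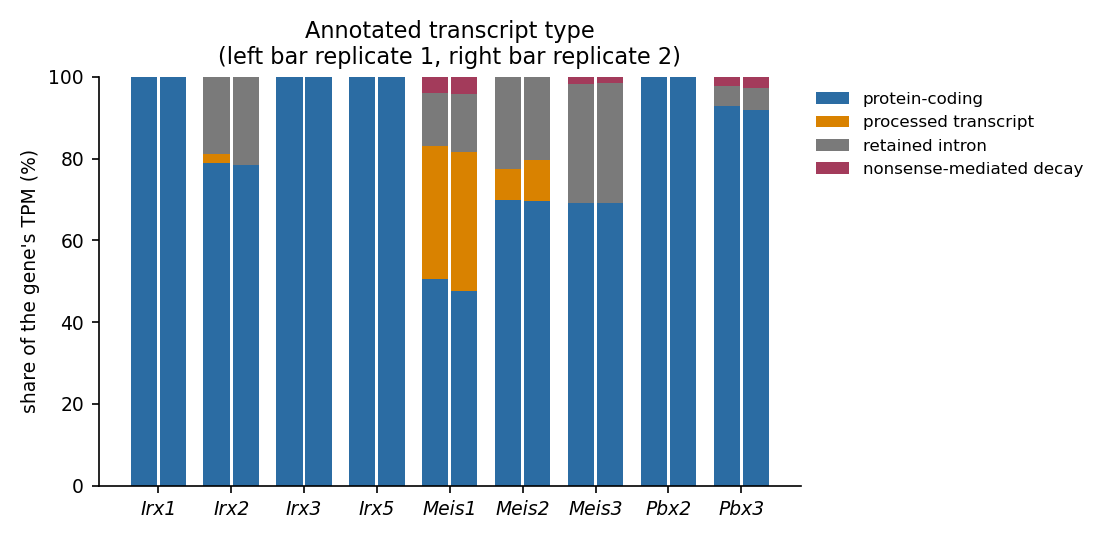
Share of each gene's TPM in percent by annotated transcript type, with replicate 1 as the left bar and replicate 2 as the right bar of each pair. The protein-coding share of Meis1, 50.5% in replicate 1 and 47.6% in replicate 2, is the lowest of the 9 genes. The bars of Irx1, Irx3 and Irx5 are wholly protein-coding because no other type of transcript was counted for them. The bars of Pbx2 are wholly protein-coding as well, but its posterior mean estimates give 92.28% in replicate 1 and 92.85% in replicate 2.

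A feature shared by Meis1 and Meis2 is a 95-base exon near the 3′ end of the reading frame that holds a stop codon when it is spliced in. With it, Meis1 encodes the shorter form of 390 codons (known as Meis1a), and without it Meis1-209 encodes the longer form of 465 codons (Meis1b). The Meis1 exon lies at chr11:18883988-18884082 and the Meis2 exon at chr2:115866810-115866904, both on the minus strand of GRCm38. The sequences are shown because this choice sets which C-terminus the transcript encodes; they read 5′ to 3′ along the transcript from GENCODE, with the coding bases of the exon up to and including the stop codon in capitals and 20 bases of the preceding exon in lower case. The Meis1 junction without the exon follows them, with 20 bases of each joined exon.
Meis1 with the exon: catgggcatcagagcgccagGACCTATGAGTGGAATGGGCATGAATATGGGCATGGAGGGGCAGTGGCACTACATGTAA
Meis2 with the exon: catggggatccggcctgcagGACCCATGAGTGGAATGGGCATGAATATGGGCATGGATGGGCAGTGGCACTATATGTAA
Meis1 without the exon: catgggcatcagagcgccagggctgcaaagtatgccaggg
The capitals agree at 56 of 59 bases between Meis1 and Meis2 (94.9%).

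Among transcripts with either junction, those that hold the exon made up 86.5% of Meis1 TPM in replicate 1 and 85.8% in replicate 2, a mean of 86.2% ± 0.460 (SD, n = 2). For Meis2 the share with the exon was 53.8% in replicate 1 and 61.8% in replicate 2, a mean of 57.8% ± 5.63. The Meis1 share was the higher in both libraries, and its values did not overlap those of Meis2; with 2 libraries no test of the difference was made. The Meis1 figure includes Meis1-203, and over protein-coding transcripts alone it was 84.3% and 83.0%.

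Which single Meis2 transcript led could not be settled. Meis2-206 of 394 codons carried 18.8% in replicate 1 and 14.8% in replicate 2, and Meis2-201 of 477 codons carried 14.9% and 21.4%. Meis2-203 of 470 codons took 18.3% and 5.25%, Meis2-202 of 393 codons 9.24% and 18.9%, and the retained-intron Meis2-213 13.7% and 14.1%. The 4 coding transcripts traded places between the libraries, and their posterior SDs of 54.6 to 98.7 reads were large beside estimates of 84.5 to 368.6 reads. In the deposited posterior mean estimates the mean shares were 8.24% for Meis2-201, 7.22% for Meis2-206 and 18.1% for Meis2-203, against 18.2%, 16.8% and 11.8% by the deposited percent. Meis2-205 of 401 codons had 7.93% there, against 0.135%. Coding Meis2 transcripts also differ by 21 bases at one end of the exon at chr2:115867269-115867379, whose long form made up 34.4% in replicate 1 and 42.1% in replicate 2.

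Meis3 was led by Meis3-201 of 378 codons, with 34.0% in replicate 1 and 37.7% in replicate 2. Meis3-205 of 361 codons followed with 19.3% and 29.1%, and the retained-intron Meis3-202 with 21.7% and 21.6%. Meis3-208, a partial coding transcript, was given 15.9% in replicate 1, or 32.0 reads, and 0 reads in replicate 2. Meis3-201 and Meis3-205 differ by 51 bases at one end of the exon at chr7:16178951-16179100. The long form, in Meis3-201, made up 63.8% in replicate 1 and 56.4% in replicate 2 of transcripts with either end. These 2 transcripts also differ by 4 bases at one end of the exon at chr7:16185448-16185521. There the long form, in Meis3-205, made up 24.8% in replicate 1 and 32.3% in replicate 2, with retained-intron transcripts counted on the short side. Over protein-coding transcripts alone it was 36.16% and 43.59%. Those values rest on the same 2 transcripts as the shares at the 51-base difference, so they are not a separate measurement.

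Pbx proteins are the partners that Meis and Hox proteins share. Pbx3 (chr2:34171457-34373142, minus strand), best known for its part in neurons that control breathing, stood at 29.26 TPM in replicate 1, with 30.86 TPM in replicate 2. Pbx2 (chr17:34591266-34597400, plus strand), a broadly expressed member of the family, reached 7.94 TPM (replicate 1) and 8.40 TPM (replicate 2). Pbx3 was 3.69-fold above Pbx2 in replicate 1 and 3.67-fold in replicate 2, the steadiest ratio among the gene pairs compared.

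Pbx3 has an exon of 113 bases whose inclusion lengthens the protein beyond the homeodomain, giving the form known as Pbx3a; skipping it shifts the reading frame. The exon lies at chr2:34176749-34176861 on the minus strand of GRCm38. The sequences are shown because this choice separates the main protein-coding Pbx3 transcripts; the exon is in capitals with 20 bases of each flanking exon in lower case, 5′ to 3′ along the GENCODE transcript.
Pbx3 with the exon: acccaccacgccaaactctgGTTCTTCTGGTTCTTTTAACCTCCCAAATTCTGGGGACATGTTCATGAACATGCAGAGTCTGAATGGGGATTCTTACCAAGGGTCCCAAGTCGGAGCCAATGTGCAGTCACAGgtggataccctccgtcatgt
Pbx3 without the exon: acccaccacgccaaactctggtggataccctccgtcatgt

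Most of the Pbx3 level with either junction came from transcripts that skip the exon. The share with the exon was 36.1% in replicate 1 and 37.3% in replicate 2 for Pbx3, a mean of 36.7% ± 0.806 (SD, n = 2). Both libraries gave nearly the same value, below those of the Meis1 and Meis2 exons. Behind these shares, Pbx3-202 of 351 codons, which skips the exon, carried 57.7% and 54.1% of Pbx3, and Pbx3-201 of 434 codons, which holds it, carried 30.4% and 29.4%. The estimate for Pbx3-202 was 992.67 reads in replicate 1 with a posterior SD of 46.1, against 494.01 reads with a posterior SD of 48.9 for Pbx3-201.

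**Figure D4:**
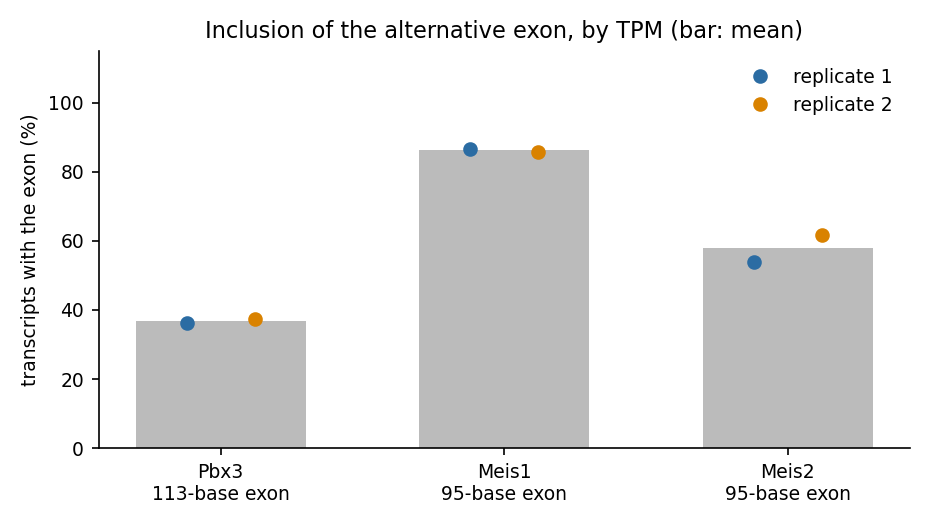
Share of transcripts that hold the alternative exon, in percent of the TPM of transcripts that hold or skip it, for Pbx3, Meis1 and Meis2. Bars are means and points are replicate 1 (left) and replicate 2 (right); Pbx3 lies at 36.1% and 37.3% and Meis1 lies above Meis2 in both libraries.

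The same search found no such choice in Pbx2. Pbx2-201 of 430 codons carried 71.8% in replicate 1 and 73.4% in replicate 2, and Pbx2-203 of 348 codons carried 26.1% and 23.5%. The Irx genes were simpler: Irx1 and Irx5 have 1 transcript each in the tables, and Irx3-202 carried 94.6% and 96.7% of Irx3. Irx2-201 of 474 codons carried 68.5% and 63.8% of Irx2, followed by the retained-intron Irx2-202 with 18.8% and 21.6%.

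Of 8 other TALE genes examined, 6 were detected. The 2 highest were Tgif2 with 54.19 TPM (replicate 1) and 60.50 TPM (replicate 2) and Tgif1 with 49.59 and 48.68 TPM, both repressors that act in TGF-β signalling. Pknox1, a Meis relative that also binds Pbx proteins, measured 38.20 TPM in replicate 1 and 39.44 in replicate 2, between Meis1 and Meis2. Pbx4 had 7.34 and 5.73 TPM, Pknox2 had 5.14 and 6.19 TPM, and the tendon regulator Mkx had 5.94 and 7.22 TPM. The Pbx4 level rested on only 92 and 89 reads, and protein-coding transcripts took 37.9% and 27.6% of it. Meis1 thus stood above every one of these relatives in both libraries. Of 23 Hox genes of groups 1 to 8, with which Pbx and Meis proteins bind DNA, 14 were detected. The highest were Hoxb5 with 51.77 and 61.40 TPM, Hoxa5, which is required for lung development, with 45.80 and 47.16 TPM, Hoxb2 with 38.34 and 41.63 TPM and Hoxb6 with 15.53 and 19.72 TPM. Pbxip1, whose protein binds Pbx proteins, stood at 11.43 TPM in replicate 1, with 10.94 TPM in replicate 2.

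The annotation places 18 genes across or within 5000 bases of the 9, of which 16 are in the tables and 13 had a mean of at least 1 TPM. The sources used here do not say whether counting used strand, so reads of overlapping genes cannot be told apart. Within Meis1 lie the antisense Gm16141 at 10.84 TPM (replicate 1) and 13.58 TPM (replicate 2), the antisense Gm16140 at 2.59 and 1.87 TPM, and 2610001A08Rik and Gm37818, on the strand of Meis1, at means of 5.77 and 1.78 TPM. Irx3 overlaps its antisense gene Irx3os, at 2.11 and 2.20 TPM. Crnde, a long non-coding RNA that starts 1504 bases from Irx5 on the other strand, reached 34.68 TPM (replicate 1) and 41.82 TPM (replicate 2), above Irx5 in both. Gm20554 lies 255 bases from Irx2 at a mean of 1.06 TPM, and 2700033N17Rik lies 378 bases from Meis2 at 2.41 TPM. Pbx2 sits in a dense stretch: it overlaps Gpsm3, a G-protein regulator, at 10.96 and 11.87 TPM. Ager, the receptor gene known as a mark of flat alveolar cells, begins 461 bases beyond Pbx2 and had 58.58 and 52.25 TPM. Rnf5, Gm20463 and Notch4 near Pbx2 had means of 64.48, 15.3 and 6.71 TPM.

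Between the libraries, none of the 9 genes differed by the rule of adjusted p under 0.05 and at least 2-fold, against 169 of 14870 genes tested (1.14%), with 0.780% higher and 0.356% lower in replicate 1. The test was an exact two-sided binomial test of the counts, with Benjamini-Hochberg adjustment over all genes tested, which takes in counting error only. At any size of change, 5 of 9 passed the adjusted threshold, all lower in replicate 1, against 1642 of 14870 genes (11.0%) in that direction and 22.5% in either. With spike-in scaling, which moved the median log2 ratio of all genes to -0.34, all 9 passed and were lower in replicate 1, as did 11412 of 14870 genes (76.7%), with 77.9% in either direction. None of the 9 passed edgeR's exact test at a common dispersion, which lets genes vary beyond counting (adjusted p = 1 for each), against 0.713% of all genes at 2-fold or more and 0.780% at any size. By that test none of the 9 had an unadjusted p under 0.05. Its dispersion (a biological coefficient of variation of 9.58%) was estimated from these same 2 libraries. Their difference is thus part of the spread it allows, so the test can hardly call small differences.

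The differences that counting error did not cover were small. Meis3 had 518 reads in replicate 1 and 697 in replicate 2, a log2 ratio of -0.37 (95% interval -0.53 to -0.20, adjusted p = 0.000206 by the exact binomial test). Irx5 had 755 and 947 reads, a log2 ratio of -0.26 (-0.40 to -0.12, adjusted p = 0.00181 by the same exact test). Irx3 had 1167.67 and 1416.78 reads (log2 ratio -0.22, exact adjusted p = 0.00159). Replicate 1 was the lower library for all 3, and for Irx2 (-0.19, exact adjusted p = 0.00958) and Meis1 (-0.07, exact adjusted p = 0.0281) as well. Irx1, Meis2, Pbx2 and Pbx3 did not pass without spike-in scaling, with log2 ratios of -0.13, -0.07, -0.02 and 0.03 and intervals that all included 0. For Pbx3 the TPM was lower in replicate 1 and the scaled count was slightly higher there; scaling by spike-ins instead turned its log2 ratio to -0.31.

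By family, the median log2 ratio was -0.20 over 4 Irx genes, -0.07 over 3 Meis genes and 0.00347 over Pbx2 and Pbx3, beside 0.00159 over all genes tested. The 6 other TALE genes tested had a median of 0.01, and none passed the adjusted threshold. Of the 14 Hox genes tested, 4 passed, all lower in replicate 1, with a median over the list of -0.10. Of all genes tested, 11.0% passed in that direction and 22.5% in either. None of the 14 Hox genes passed edgeR's exact test. The 6 epithelial markers had log2 ratios of -0.02 to 0.13, of which 1 was below 0. Their sums were 2594 TPM (replicate 1) and 2651 TPM (replicate 2), with 2126.93 and 2183.57 TPM of that on Sftpc. TPM was scaled with spike-ins included, 4.94% and 3.96% of reads in replicates 1 and 2, and the ratios were scaled without them. For the 6 mesenchymal markers the ratios were -0.10 to 0.09. Of the 14 heart muscle markers, 12 were tested and 10 passed the 2-fold rule, all higher in replicate 1, among them the atrial gene Myl7 with 269.87 TPM (replicate 1) and 17.29 TPM (replicate 2). Nppa, also atrial, had 234 reads in replicate 1 and 0 reads in replicate 2. Myh7, with 1.16 TPM (replicate 1) and 1.83 TPM (replicate 2), and Pln, with 2.97 and 2.78 TPM, did not pass the rule. The 5 skeletal muscle markers, 2 of them detected, summed to 25.22 and 12.21 TPM in replicates 1 and 2. Of the 4 skeletal muscle markers tested, 3 passed the 2-fold rule, all higher in replicate 1 (Acta1, Ckm and Myl1). Mylpf (6.26 and 8.72 TPM) and Myog (0 and 0.03 TPM) were higher in replicate 2. The 6 markers of neurons and neural crest, 3 of them detected, summed to 12.57 and 8.30 TPM. Of the 4 neural markers tested, 1 passed the 2-fold rule, higher in replicate 1 (Prph). Sox10, below the filter for testing, was higher in replicate 2 (0.29 and 0.63 TPM). The part of these cell types in the lower Irx and Meis levels of replicate 1 was not tested.

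**Figure D5:**
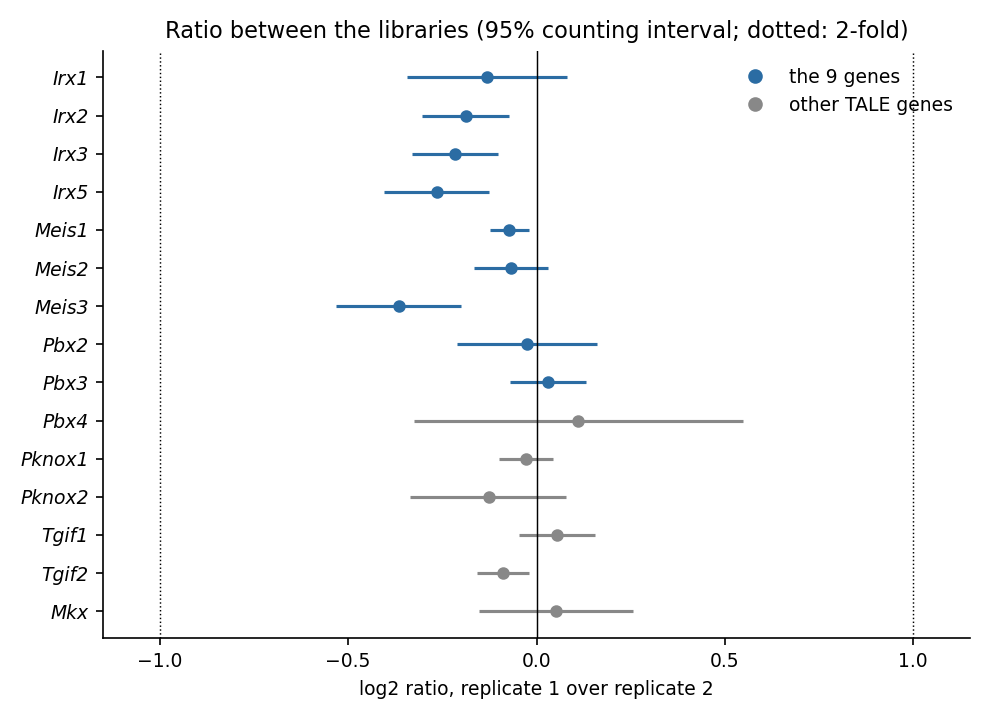
The log2 ratio of replicate 1 over replicate 2 from scaled counts for the 9 genes (blue) and 6 other TALE genes (grey), with 95% binomial intervals that cover counting error only; dotted lines mark a 2-fold difference. Every point lies between -0.37 and 0.11, inside the dotted lines, with the 4 Irx genes and 3 Meis genes left of 0.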

How the data were processed

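Total RNA from embryonic day 14.5 lung was measured in 2 libraries of 1 group. The authors deposited, per the file headers, gene and transcript tables with an expected count (an estimated number of reads that need not be whole), TPM scaled over all features with spike-ins included, the percent of a gene's TPM on each transcript, posterior mean values, posterior SDs and credibility bounds. The deposited read-me files name mm10, GENCODE M4 and transcriptome alignments. The aligner, the quantification program, their versions and the use of strand were not given in the sources used here.

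Each gene table held 69691 features. Spike-ins and entries that name no mouse gene (0.000149% and 0.000138% of counts) were left out of tests. Names, positions and sequences came from GENCODE M21 (GRCm38), in which all 52 transcripts of Meis1, Meis2, Meis3, Pbx2 and Pbx3 had the same length. Irx3-202 and Irx5-201 did not, so the M21 models of Irx3 and Irx5 differ from those counted. The exon shares were chosen after seeing the data. Expected counts were rounded, scaled by TMM over 14870 genes with a mean of at least 1 TPM, and compared by an exact binomial test, because edgeR's quasi-likelihood test needs a second group. The count added for ratios was 0.5. Exon shares sum TPM over annotated transcripts that hold or skip an exon. The test was checked on simulated counts with counting error only, which cannot show its error rate on these libraries. Between the real libraries the chi-square per degree of freedom, which is near 1 for counting error alone, was 9.36. R 4.3.3, edgeR 4.0.16, DESeq2 1.42.0, Python 3.11.15, pandas 2.3.3 and numpy 2.4.6 were used.

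The genes and lists were chosen with earlier results of these data known. An item of the rule for named genes is not reported here. Named were the 9 genes, the other TALE genes examined, the 4 highest Hox genes, Pbxip1, neighbours at a mean of 1 TPM or more and Meis and Pbx transcripts at 10% or more in either library, with Meis1-209, Meis2-205 and the Irx transcripts named in addition after their values were seen. Unmapped per-sample columns numbered 0. Total counts of 33601136 and 34535168 set the precision, and all intervals cover counting error only. The alternatives tried were other scalings, filters, added counts, posterior mean estimates, edgeR's exact test and each library alone.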

Additional observations from a re-analysis of the deposited data

How the results depend on the processing

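No paired analysis was possible because the series has 1 group. Under every alternative run, all 9 genes were detected and none was called. The number of genes called among all genes was 169 and became 290 with spike-in scaling, 538 with no filter on low values and 106 by edgeR's exact test; of those called, 68.6%, 30.0%, 66.9% and 79.2% were higher in replicate 1. Spike-in scaling moved the median log2 ratio of all genes to -0.34, turned Pbx3 to -0.31 and put 9 of 9 genes past the adjusted threshold, lower in replicate 1, against 5 of 9. With posterior mean estimates, the share of Meis2-201 was 8.24% (deposited percent 18.2%), of Meis3-201 31.0% and of Pbx2-201 65.6%, and the levels of Meis2 and Pbx2 were 27.8 and 8.75 TPM. Other Meis2 transcripts moved by over 1.5 times as well. The exon shares and all their alternatives were chosen after seeing the data; over protein-coding transcripts they were 83.7% for Meis1 and 34.9% for Pbx3. With a single library kept, summed levels ranged over 68.5 to 83.7 TPM for the 4 Irx genes and 137.6 to 153.8 TPM for the 3 Meis genes. For Pbx2 with Pbx3, a sum that leaves out Pbx4, they ranged over 37.2 to 39.3 TPM. The causes of these shifts were not tested. Rescaling TPM over mouse genes raises every gene of a library by the same factor, so all 9 levels rose. For Irx1, Meis1, Meis2, Pbx2 and Pbx3 the rise was more than 1 SD of the 2 libraries. For Irx2, Irx3, Irx5 and Meis3, whose SDs were larger beside their means, it was less, as for Irx2 from 29.1 to 32.25 TPM. Transcript shares rest on annotated transcripts and on a division of shared reads, so they are less certain than gene levels.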
